A study of Mus musculus with 6 samples.

Results

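BAFF and APRIL are a pair of related ligands of the tumor necrosis factor (TNF) family, encoded in the mouse by Tnfsf13b and Tnfsf13. Their receptors are TACI (Tnfrsf13b), BAFF-R (Tnfrsf13c) and BCMA (Tnfrsf17). These 5 genes were taken by symbol from a table of 56262 genes measured by RNA-seq in lungs of R/R and WT mice. The count filter kept 4 of the 5. All lungs came from untreated mice of 8 weeks. R/R mice were homozygous for a knock-in of RBM47 K329R;K332R, in which lysines 329 and 332 of the RNA-binding protein RBM47 are replaced by arginine, and WT mice carried no knock-in. Lysine 329 is an attachment site of the ubiquitin-like protein ISG15, and the series asks how lung gene expression differs when that attachment is blocked. The knock-in was made by genome editing on a C57BL/6 background and is not limited to the lung or to a cell type. Since both lysines were replaced together, the effect of one cannot be told apart from that of the other. Each genotype had 3 lungs (replicates 1 to 3), described in the methods as biological replicates from littermates.

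BAFF is made mainly by myeloid and stromal cells, is cut from the cell surface by furin-type proteases, and keeps mature B cells alive through BAFF-R. APRIL is cleaved inside the producing cell, binds TACI and BCMA but not BAFF-R, and supports plasma cells, in part while held on heparan sulfate proteoglycans. All of these receptors signal through TRAF adaptor proteins to NF-κB, and BAFF-R is the one that engages the noncanonical arm, in which TRAF3 is degraded, the kinase NIK accumulates and NF-κB2 is processed.

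The 6 libraries held 16501092 to 18141067 counts, so that 1 count stood for 0.0551 to 0.0606 CPM, the count scaled for library size. Of 17120 genes tested with the edgeR quasi-likelihood test, 300 passed a Benjamini-Hochberg adjusted p of 0.05, 111 of them higher and 189 lower in R/R lungs. Rbm47 itself gave 589, 561 and 579 counts in R/R and 474, 552 and 588 in WT lungs (log2 fold change 0.10, SE 0.08, edgeR adjusted p = 0.660), and counts per gene do not show the substitution, so the genotype rests on the labels. Markers of lung epithelium were abundant in every library, with 164819 to 243169 counts of Sftpc, the surfactant protein C gene.

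The ligand Tnfsf13b rose in R/R lungs, while the receptor genes Tnfrsf13b and Tnfrsf13c had lower counts in every R/R lung than in any WT lung without passing the adjusted threshold. Tnfsf13 and Tnfrsf17 overlapped between the genotypes. Of the 4 tested members, 1 was called, beside 1.75% of all tested genes, and 3 showed no overlap between the 3 R/R and 3 WT lungs, beside 18.7% of all tested genes. Of those 3, 1 was higher in R/R lungs and 2 were lower, beside 9.17% and 9.5% of all tested genes without overlap in that direction. In whole-lung RNA, fewer cells of a type and less RNA per cell cannot be told apart, and this holds for each value given here.

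**Figure D1:**
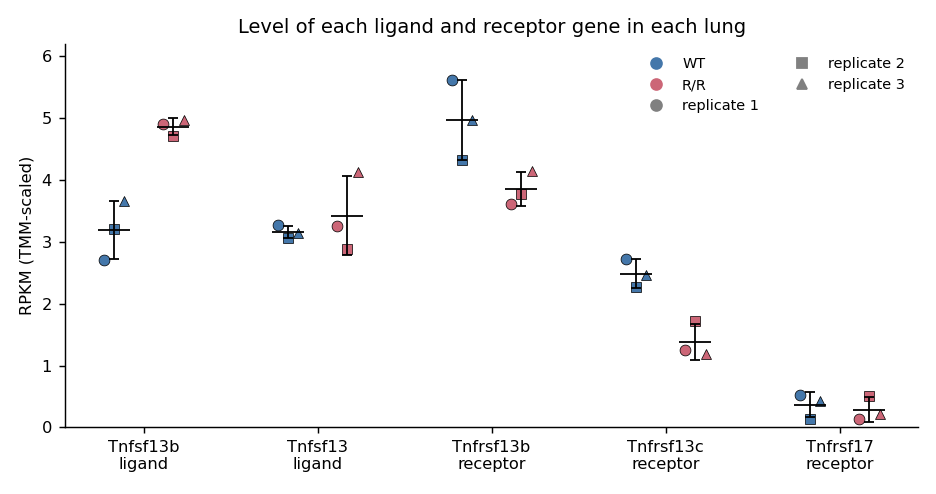
Level of each ligand and receptor gene in RPKM (CPM per kilobase of exon, TMM-scaled, vertical axis) in 3 WT lungs (blue) and 3 R/R lungs (red), with marker shapes for replicates 1 to 3, horizontal lines at the mean and bars of 1 SD. The R/R lungs lie above the WT lungs for Tnfsf13b and below them for Tnfrsf13b and Tnfrsf13c, and the genotypes overlap for Tnfsf13 and Tnfrsf17.

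Tnfsf13b, the BAFF gene, had 608, 541 and 579 counts in R/R replicates 1 to 3 and 307, 399 and 429 counts in WT replicates 1 to 3. The lowest R/R lung was above the highest WT lung, and the WT lungs were the more spread. Scaled for library size and composition, R/R lungs stood at 33.4 ± 0.931 CPM and WT lungs at 21.9 ± 3.24 CPM (mean ± SD, n = 3 each). The fold change was 1.52 (95% interval 1.31 to 1.78), or 0.61 on the log2 scale with an SE of 0.10 (edgeR adjusted p = 0.0165). An exact two-sided permutation test of log2 CPM gave p = 0.1, the smallest that 3 against 3 lungs allow. The direction held with each lung left out, but the call was lost when R/R replicate 2 (edgeR adjusted p = 0.0625) or 3 (0.0576) was left out, and when WT replicate 1 (0.0554) or 2 (0.0512) was.

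The gene (ENSMUSG00000031497.9) is protein-coding and lies on the plus strand of chromosome 8, chr8:10006467-10039072 in GRCm38, with 6868 exon bases in the counting annotation, none of them shared with another gene. RefSeq (GRCm38.p6) gives a pair of start sites for it. The 250 bases before the first start, shown because Tnfsf13b is the member that passed the test, are chr8:10006217-10006466 on the plus strand.

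Tnfsf13b, before the first start: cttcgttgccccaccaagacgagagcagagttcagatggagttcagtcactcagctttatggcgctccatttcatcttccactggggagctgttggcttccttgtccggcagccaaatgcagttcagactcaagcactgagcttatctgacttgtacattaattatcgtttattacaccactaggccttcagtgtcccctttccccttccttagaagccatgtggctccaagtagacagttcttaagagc

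This window has a GC content of 48.8%, beside a median of 52.4% over 32851 RefSeq windows of the same length. Each window was searched on both strands for GAAA followed after any 2 bases by GAAA, the core of the interferon-stimulated response element (ISRE), and for GAGGAA, a core bound by the ETS factors PU.1 and Spi-B. Neither run of letters is in the window before the first start, which is therefore in lower case throughout. Before the second start the ISRE core occurs once, in positions 16 to 7 before that start, and 30 bases around it, chr8:10006603-10006632 on the plus strand, are shown with the match in capitals.

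Tnfsf13b, before the second start: atcttacaaaaactGAAAGTGAAAtgcgga

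A match to the ISRE core is present in 978 of the 32851 windows (2.98%) and a match to GAGGAA in 7639 (23.3%). The letters describe the sequence only, and binding was not measured.

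Tnfsf13, the APRIL gene, had 96, 79 and 115 counts in R/R replicates 1 to 3 and 88, 91 and 88 counts in WT replicates 1 to 3. R/R replicate 2 was the lowest of the 6 lungs and R/R replicate 3 the highest, so the genotypes overlapped. The mean and SD were 5.61 ± 1.05 CPM over the R/R lungs and 5.17 ± 0.162 CPM over the WT lungs. Its fold change of 1.08 had a 95% interval of 0.828 to 1.42 (log2 0.12, SE 0.18, edgeR adjusted p = 0.836), and the exact two-sided permutation test gave p = 0.8. The interval leaves out a fold change as large as that of Tnfsf13b. Without R/R replicate 3, the log2 fold change was -0.040.

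Tnfsf13 (ENSMUSG00000089669.7, protein-coding, minus strand, chr11:69682846-69685784 in GRCm38) has 1637 exon bases, of which 983 (60.1%) are also exons of Tnfsfm13, a gene model on the same strand that joins Tnfsf12 and Tnfsf13 exons. Tnfsf12 encodes TWEAK, another ligand of the TNF family. Pairs falling wholly in shared exons were assigned to neither gene, so the Tnfsf13 counts come from pairs that reach the remaining 654 bases, all in its first exon. An antisense gene, Tnfsf13os, covers 221 of the shared bases, and the counting took no account of strand. Tnfsfm13 had 99, 85 and 84 counts in R/R and 95, 92 and 98 in WT lungs (log2 fold change -0.09, SE 0.16, edgeR adjusted p = 0.855). Summed with Tnfsfm13, Tnfsf13 gave 195, 164 and 199 counts in R/R and 183, 183 and 186 in WT lungs, with a log2 fold change of 0.01 (SE 0.12, edgeR adjusted p = 0.981). The neighbour Tnfsf12 had 489 to 568 counts in R/R and 467 to 504 in WT lungs (log2 fold change 0.12, SE 0.08, edgeR adjusted p = 0.553). None of these sums or neighbours separated the genotypes beyond the spread of the lungs.

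**Figure D2:**
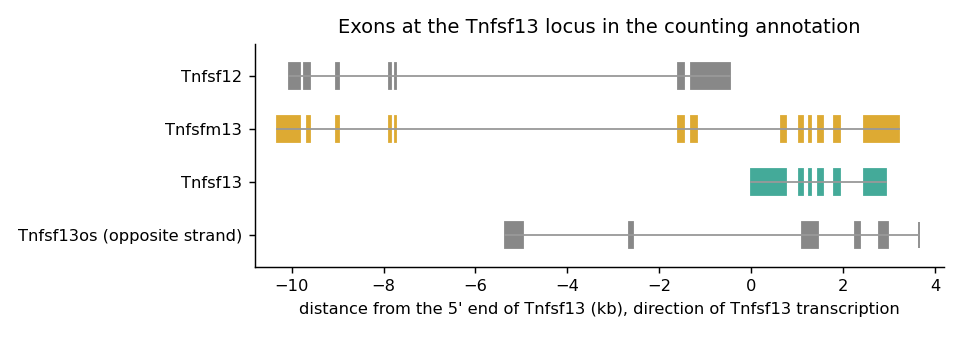
Exons (boxes) of Tnfsf13 and of the gene models around it, by distance in kilobases from the 5' end of Tnfsf13 in its direction of transcription (horizontal axis). Every Tnfsf13 exon after the first is also an exon of Tnfsfm13, and the first 654 bases of Tnfsf13 are not shared.

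Among the receptors, Tnfrsf13b, which encodes TACI and binds both ligands, had 185, 179 and 200 counts in R/R replicates 1 to 3 and 262, 222 and 241 counts in WT replicates 1 to 3. All R/R lungs were below all WT lungs, with R/R replicate 3 closest to WT replicate 2. Over the R/R lungs the mean was 10.9 ± 0.779 CPM, against 14.1 ± 1.83 CPM over the WT lungs. The log2 fold change was -0.37 (SE 0.13, 95% interval -0.64 to -0.09, edgeR adjusted p = 0.195), and the exact two-sided permutation test gave p = 0.1. The gene (ENSMUSG00000010142.12) is protein-coding with 2836 exon bases on the plus strand, chr11:61126755-61149372 in GRCm38.

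Tnfrsf13c encodes BAFF-R, which binds BAFF but not APRIL. It had 46, 59 and 41 counts in R/R replicates 1 to 3 and 92, 84 and 86 counts in WT replicates 1 to 3. The WT lungs lay close together, and the highest R/R lung, replicate 2, was below the lowest WT lung. The means were 2.83 ± 0.606 CPM for R/R and 5.09 ± 0.478 CPM for WT. This was a ratio of 0.557 (95% interval 0.407 to 0.762, log2 -0.84, SE 0.21), with an edgeR adjusted p of 0.0683 and an unadjusted p of 0.00160. The exact two-sided permutation test gave p = 0.1. By DESeq2 the gene passed the threshold (adjusted p = 0.0352), as it did by edgeR with no filter on low counts (adjusted p = 0.00559). These were 2 of the 6 alternative settings that kept every lung. It was not called in any of the 6 fits that leave out 1 lung (edgeR adjusted p 0.0768 to 0.25).

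Tnfrsf13c (ENSMUSG00000068105.11) is protein-coding with 2048 exon bases on the minus strand, chr15:82221743-82224369 in GRCm38. The RefSeq windows of the 250 bases before the starts of Tnfrsf13b (chr11:61126505-61126754, plus strand) and Tnfrsf13c (chr15:82224381-82224630, minus strand) are shown because both receptor genes were lower in every R/R lung.

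Tnfrsf13b: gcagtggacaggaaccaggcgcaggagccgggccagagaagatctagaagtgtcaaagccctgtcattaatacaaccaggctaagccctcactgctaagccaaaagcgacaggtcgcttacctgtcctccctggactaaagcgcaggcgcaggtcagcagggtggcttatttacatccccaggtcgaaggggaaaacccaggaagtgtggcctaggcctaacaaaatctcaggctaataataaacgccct
Tnfrsf13c: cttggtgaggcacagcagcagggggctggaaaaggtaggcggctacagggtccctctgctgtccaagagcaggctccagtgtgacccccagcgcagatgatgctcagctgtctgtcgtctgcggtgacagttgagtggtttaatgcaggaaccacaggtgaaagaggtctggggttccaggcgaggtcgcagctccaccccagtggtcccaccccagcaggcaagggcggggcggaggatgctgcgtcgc

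Their GC contents were 54.0% and 63.2%, and neither window holds the ISRE core or GAGGAA on either strand, which says nothing about the factors beyond these 250 bases. The Tnfrsf17 window holds each motif once, both read on the minus strand. The 30 bases around its match to the ISRE core, chr16:11313698-11313727 printed on the plus strand with the match in capitals, are shown beside those of Tnfsf13b as the only other such match among the members.

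Tnfrsf17: aaataggtggTTTCTGTTTCaggaatagtt

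Tnfrsf17 encodes BCMA, the receptor of plasma cells, and was near the limit of detection. It had 2, 7 and 3 counts in R/R replicates 1 to 3 and 7, 2 and 6 counts in WT replicates 1 to 3, too few for the count filter. With 12 counts in all in R/R and 15 in WT lungs, the ratio scaled for library size was 0.799 with an exact 95% interval of 0.342 to 1.83, which covers counting error only. The exact two-sided permutation test gave p = 0.8. Differences inside that interval were not detectable at this depth. The gene (ENSMUSG00000022496.5, protein-coding, chr16:11313812-11320074 in GRCm38, plus strand) has 815 exon bases.

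Levels of different genes were compared per length, as RPKM over the exon bases in the counting annotation. In WT lungs the order from the highest mean was Tnfrsf13b (4.97 RPKM), Tnfsf13b (3.19), Tnfsf13 (3.16), Tnfrsf13c (2.48) and Tnfrsf17 (0.363). Tnfsf13b and Tnfsf13 were the only neighbours in that order whose lungs overlapped, and the spread WT lungs of Tnfsf13b (2.72 to 3.66 RPKM) also reached those of Tnfrsf13c (2.26 to 2.73 RPKM). In R/R lungs the order was Tnfsf13b (4.86 RPKM), Tnfrsf13b (3.85), Tnfsf13 (3.43), Tnfrsf13c (1.38) and Tnfrsf17 (0.289), and Tnfrsf13b and Tnfsf13 were the neighbours that overlapped. These orders hold for the exon length in the counting annotation. Over the 654 bases of Tnfsf13 that are not shared, its level would be 7.91 RPKM in WT and 8.58 RPKM in R/R lungs, above every other member in both.

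Summed over the ligands, the level was 8.17, 7.59 and 9.10 RPKM in R/R replicates 1 to 3 and 5.98, 6.27 and 6.80 RPKM in WT replicates 1 to 3. Summed over the receptors, it was 5.003, 6.01 and 5.55 RPKM in R/R and 8.86, 6.72 and 7.86 RPKM in WT lungs. With the exon lengths of the counting annotation, ligand exceeded receptor RNA in every R/R lung, and receptor exceeded ligand RNA in every WT lung. The ratio of ligands to receptors was 1.51 ± 0.215 in R/R and 0.825 ± 0.134 in WT lungs (SD, n = 3 each). On the log2 scale this was 0.59 ± 0.22 against -0.29 ± 0.24, a difference of 0.88 with no overlap. Since the members were given as a set, this contrast is a description without a test.

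The pairs that can bind each other were then compared within each lung. Tnfsf13b minus Tnfrsf13b, on log2 RPKM, was 0.44, 0.32 and 0.26 in R/R replicates 1 to 3 and -1.05, -0.43 and -0.44 in WT replicates 1 to 3. BAFF RNA was above TACI RNA in all R/R lungs and below it in all WT lungs. For Tnfsf13b minus Tnfrsf13c, the axis of BAFF and BAFF-R, the values were 1.98, 1.45 and 2.07 in R/R and -0.01, 0.50 and 0.57 in WT lungs. This was the widest shift of the ligand and receptor pairs, 1.48 on the log2 scale between the genotype means. Tnfsf13 minus Tnfrsf13b was -0.18 ± 0.19 in R/R and -0.65 ± 0.14 in WT lungs (SD, n = 3 each). APRIL RNA was thus below TACI RNA in WT lungs with the annotated length. In R/R lungs the mean lay within 1 SD of 0, with replicate 3 at -0.006. Over the unshared bases APRIL RNA was above TACI RNA in both genotypes. Tnfsf13b minus Tnfsf13 was 0.52 ± 0.23 in R/R and 0.005 ± 0.25 in WT lungs on log2 RPKM with the annotated length. Within the receptors, Tnfrsf13c made up 24.9% ± 3.71 of the summed RPKM in R/R and 31.9% ± 1.56 in WT lungs, without overlap, and Tnfrsf13b made up 70.0% ± 6.36 and 63.6% ± 0.581, with overlap.

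**Figure D3:**
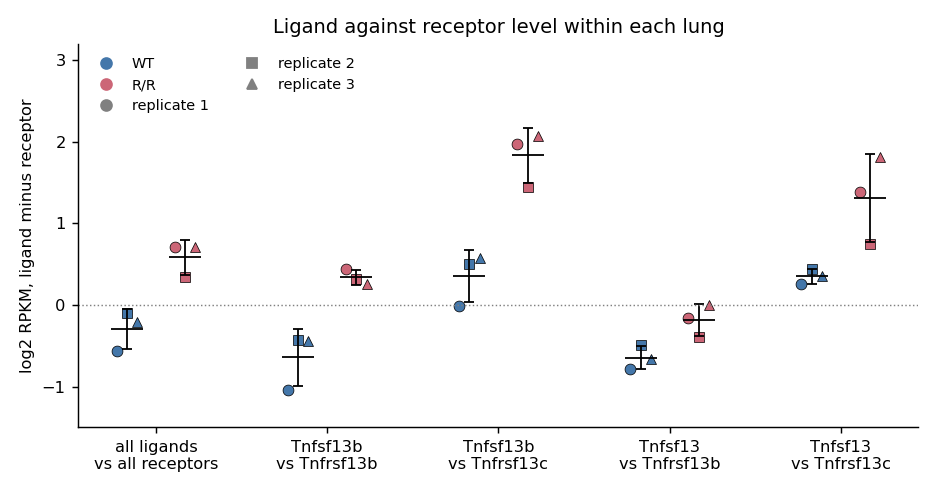
Ligand level minus receptor level on log2 RPKM (vertical axis) for the summed genes and for single pairs, in 3 WT lungs (blue) and 3 R/R lungs (red), with marker shapes for replicates 1 to 3, lines at the mean and bars of 1 SD. All R/R lungs lie above all WT lungs in each of the 5 comparisons, with the widest shift for Tnfsf13b against Tnfrsf13c. The comparisons share genes and are not independent, and APRIL does not bind BAFF-R.

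Whether ligand or receptor RNA was the higher within a genotype depended on the gene lengths used and on whether Tnfsf13 was included. Over its unshared bases, Tnfsf13 stood at 8.58 ± 1.61 RPKM in R/R and 7.91 ± 0.248 RPKM in WT lungs, above both Tnfsf13b and Tnfrsf13b, and the summed ligands were then above the receptors in both genotypes (log2 1.28 ± 0.25 and 0.52 ± 0.20). Without Tnfsf13 they were below in both (log2 -0.18 ± 0.16 and -1.29 ± 0.36). With the length of each gene's longest transcript, the log2 values were 0.84 ± 0.20 in R/R and -0.06 ± 0.26 in WT lungs. In WT lungs that mean lay within 1 SD of 0. The difference between the genotypes was 0.76, 1.11 and 0.91 in these cases in turn. These choices only reweight or drop the same counts. Both ligands had higher and all receptors lower mean log2 CPM in R/R lungs, so the kept direction is no independent check.

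Few genes that process the ligands and receptors or hold APRIL outside the cell passed the test. Of 11 listed, all were tested, 5 were higher and 6 lower in R/R lungs, and 1 fell, beside 1.1% of all tested genes that fell. That gene was Adam17, a surface protease that sheds many TNF family proteins (92.7 ± 2.23 CPM in R/R, 110 ± 3.17 CPM in WT, log2 fold change -0.25, SE 0.06), and its edgeR adjusted p of 0.04999 lay just under the threshold and was 0.0774 to 0.165 with any 1 lung left out. Furin, the protease that releases BAFF and APRIL, had 198 ± 1.13 and 199 ± 8.35 CPM (log2 -0.01, SE 0.06). Adam10, which cuts TACI from the surface, had a log2 fold change of -0.03 (SE 0.06). Psen2, a catalytic subunit of γ-secretase, which sheds BCMA, had 43.96 ± 6.38 CPM in R/R and 33.6 ± 3.12 CPM in WT lungs (log2 0.39, SE 0.11, edgeR adjusted p = 0.105), without overlap. Sdc1, a heparan sulfate proteoglycan of epithelium and plasma cells, had 269 ± 3.48 and 231 ± 25.1 CPM (log2 0.22, SE 0.07, edgeR adjusted p = 0.179), also without overlap. The median log2 fold change of the list was -0.007, beside 0.005 over all tested genes.

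The signaling genes below the receptors lay close to 0. All 17 that were matched were tested, 10 were higher and 7 lower, none passed the edgeR test, and none had an unadjusted p under 0.05, beside 14.2% of all tested genes. DESeq2 called 0 of them as well. Their log2 fold changes ran from -0.19 for Nfkb2, the noncanonical NF-κB subunit, to 0.07 for Birc3, which encodes an inhibitor-of-apoptosis ligase, and their median was 0.005. Traf3, the adaptor that holds the noncanonical arm in check, had 59.1 ± 2.70 CPM in R/R and 64.8 ± 2.33 CPM in WT lungs (log2 -0.13, SE 0.06, edgeR adjusted p = 0.367). Map3k14, which encodes NIK, had 26.6 ± 1.17 and 27.2 ± 3.598 CPM (log2 -0.03, SE 0.10). These genes are expressed in most lung cells, so whole-lung counts are not specific to cells that carry the receptors.

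Of 10 survival and target genes, 6 were higher and 4 lower, and 1 fell, beside 1.1% of all tested genes. It was Fcer2a, which encodes CD23, a surface marker of mature follicular B cells, with 236, 200 and 197 counts in R/R and 306, 311 and 283 in WT lungs (log2 -0.51, SE 0.10, edgeR adjusted p = 0.0341). All R/R lungs were below all WT lungs, and the call held in 2 of the 6 fits that leave out 1 lung. Icosl, the ligand of the T cell costimulator ICOS, had 35.9 ± 2.73 CPM in R/R and 28.1 ± 1.37 CPM in WT lungs (log2 0.35, SE 0.08, edgeR adjusted p = 0.0573). The survival genes Bcl2, Mcl1 and Bcl2l1 had log2 fold changes of 0.10, 0.06 and -0.004, with edgeR adjusted p-values of 0.706, 0.852 and 0.990. Cr2, the complement receptor of mature B cells, had a log2 fold change of -0.16 (SE 0.19, edgeR adjusted p = 0.780). The list's median was 0.03.

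Among other TNF family pairs, 6 of 8 genes were tested, 2 were higher and 4 lower, and 2 fell, beside 1.1% of all tested genes. Ltb, which encodes lymphotoxin β on lymphocytes, had 234, 215 and 182 counts in R/R and 343, 289 and 352 in WT lungs (log2 -0.65, SE 0.13, edgeR adjusted p = 0.0327). Cd40, the costimulatory receptor of B cells and other antigen-presenting cells, had 363, 343 and 358 counts in R/R and 443, 515 and 427 in WT lungs (log2 -0.38, SE 0.08, edgeR adjusted p = 0.0444). Neither overlapped between the genotypes. With 1 lung left out, Ltb was called in 2 of 6 fits and Cd40 in 1. Tnfrsf12a, the receptor of TWEAK, had 25.3 ± 4.62 CPM in R/R and 18.7 ± 0.807 CPM in WT lungs (log2 0.43, SE 0.12, edgeR adjusted p = 0.118), and Ltbr, the receptor of lymphotoxin, had a log2 fold change of -0.01 (SE 0.06). Cd40lg and Cd70 had too few counts to be tested.

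The receptor genes are carried mainly by B cells, and B cell genes were lower too. All 15 listed B cell genes were tested and lower in R/R lungs, 6 of them fell, and 12 did not overlap, beside 1.1% and 9.5% of all tested genes that were lower by those rules. Ms4a1, which encodes CD20, had 205, 204 and 158 counts in R/R and 419, 352 and 351 in WT lungs (log2 -0.99, SE 0.13, edgeR adjusted p = 0.00675). It separated the genotypes without overlap and was called with any 1 lung left out. Spib, Pou2af1 and Pax5, transcription factors of B cells, and Cd79a, a chain of the B cell receptor, also fell, with log2 fold changes of -1.08, -0.69, -0.58 and -0.67 and edgeR adjusted p-values of 0.0111, 0.0395, 0.0434 and 0.0491. The other receptor chain, Cd79b, had a log2 fold change of -0.64 (SE 0.15, edgeR adjusted p = 0.0593). The list's summed level was 153 to 198 CPM in R/R and 262 to 329 CPM in WT lungs, and its median log2 fold change was -0.58. Leaving out 1 lung turned the count of 6 into 2 (for R/R replicate 2, and likewise for R/R replicate 3) or into 3 (for WT replicate 1, and likewise for WT replicate 2).

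Set against that list within each lung, the receptors no longer separated the genotypes. Tnfrsf13b minus the mean of the B cell genes was 0.03 ± 0.28 in R/R and -0.21 ± 0.12 in WT lungs on log2 CPM (SD, n = 3 each). Tnfrsf13c minus the same mean was -1.93 ± 0.24 in R/R and -1.67 ± 0.09 in WT lungs. Both overlapped, while the mean of the B cell genes itself did not, at 3.42 ± 0.18 and 4.02 ± 0.17. The part of the B cell genes in the lower receptor values was not tested.

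Immunoglobulin constant region genes were lower as well. Of 8 listed, 5 were tested, all were lower and 4 fell, beside 1.1% of all tested genes. These were Ighm (log2 -0.61, SE 0.09, edgeR adjusted p = 0.00893), Ighd (log2 -0.74, edgeR adjusted p = 0.0202), Igkc (log2 -0.90, edgeR adjusted p = 0.0371) and Ighg2b (log2 -1.999, SE 0.33, edgeR adjusted p = 0.0158), which had 15, 9 and 12 counts in R/R and 32, 53 and 60 in WT lungs. Ighm was called with any 1 lung left out, and Ighd, Ighg2b and Igkc in 3, 3 and 2 of the 6 fits. The summed level of all 8 was 134 to 214 CPM in R/R and 294 to 360 CPM in WT lungs. Of the 6 genes of plasma cells, the cell type in which BCMA is best known, 5 were lower. None passed the edgeR test (3 had an unadjusted p under 0.05) or was called by DESeq2, which gave 1 of them no adjusted p. Jchain, which encodes the chain that joins polymeric antibodies, ranged from 28 to 131 counts in R/R and from 94 to 297 in WT lungs, so the genotypes overlapped (log2 -1.37, SE 0.44, edgeR adjusted p = 0.164). Mzb1, an endoplasmic reticulum protein of antibody-secreting cells, had 13 to 19 counts in R/R and 14 to 23 in WT lungs (log2 -0.21, SE 0.34).

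**Figure D4:**
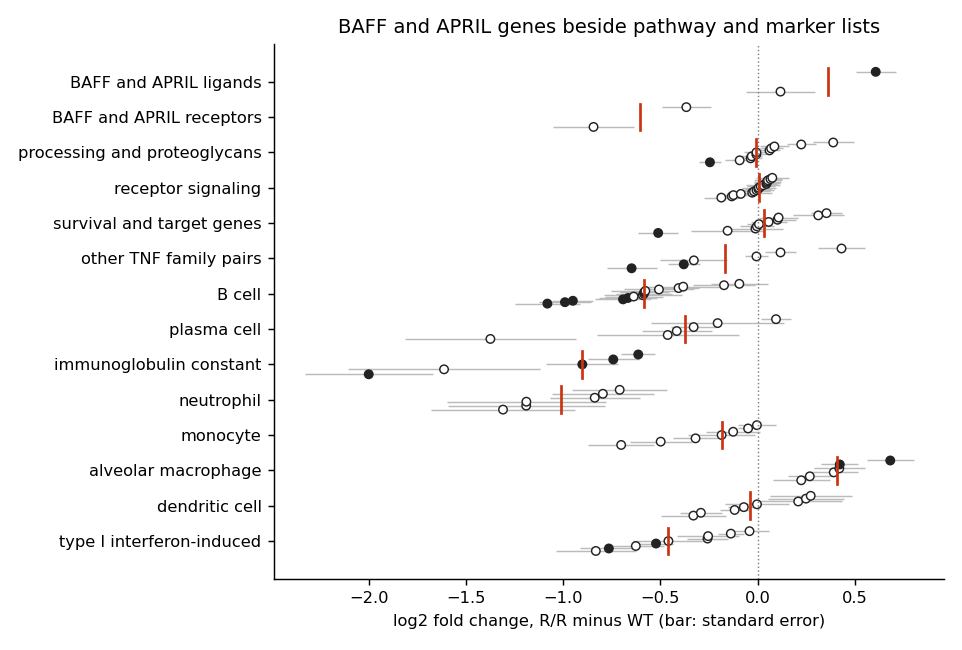
Log2 fold change of R/R against WT lungs (horizontal axis) for each tested gene of the ligands, the receptors and the pathway and marker lists (rows), with bars of 1 SE, filled points for an edgeR adjusted p below 0.05 and red lines at each list's median. The signaling genes gather at 0, B cell genes lie at -1.08 to -0.09, and alveolar macrophage genes lie on the side of Tnfsf13b.

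On the ligand side, lists for cells that can make BAFF lay on both sides of 0. All 6 alveolar macrophage genes were higher in R/R lungs and 2 rose, beside 0.648% of all tested genes that rose. They were Chil3, which encodes a chitinase-like protein of macrophages (625 ± 41.2 and 390 ± 85.5 CPM, log2 0.68, SE 0.12, edgeR adjusted p = 0.0233), and Mrc1, the mannose receptor (112 ± 8.10 and 83.6 ± 11.8 CPM, log2 0.42, SE 0.09, edgeR adjusted p = 0.0486). The list's summed level was 765 to 875 CPM in R/R and 476 to 665 CPM in WT lungs, without overlap, and none of its genes was at 0. Each of these calls held in 1 of the 6 fits that leave out a lung, the one without WT replicate 3. Neutrophil genes ran from 75.6 to 109 CPM in R/R and from 78.3 to 218 CPM in WT lungs when summed, with 6 of 7 tested and all lower. None of the 6 was called by edgeR (all had an unadjusted p under 0.05) and 1 was called by DESeq2, but 5 were called by edgeR without WT replicate 2, the WT lung at 78.3 CPM. Monocyte genes ran from 294 to 311 CPM in R/R and from 314 to 346 CPM in WT lungs, with all 7 lower, none called by edgeR (3 with an unadjusted p under 0.05) and 2 by DESeq2. Dendritic cell genes ran from 139 to 151 CPM and from 145 to 164 CPM, with 3 higher, 5 lower and none called by edgeR (1 with an unadjusted p under 0.05) or DESeq2.

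Set against the alveolar macrophage genes within each lung, Tnfsf13b was still higher in R/R lungs. Its log2 CPM minus the mean of that list was -0.51, -0.34 and -0.50 in R/R replicates 1 to 3 and -0.71, -0.63 and -0.65 in WT replicates 1 to 3. The shift of 0.21 was smaller than that of Tnfsf13b alone (0.62 on the same scale), and the genotypes did not overlap. Against the monocyte, dendritic cell and neutrophil lists the shift was 0.88, 0.63 and 1.504, without overlap in each. The means of those lists themselves moved by -0.26, -0.01 and -0.89 in turn, which is part of each shift. Against the neutrophil list the WT lungs were widely spread, at -0.66, 1.02 and -0.18 in replicates 1 to 3. The part of these cell types in the rise of Tnfsf13b was not tested.

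Interferon is a known inducer of BAFF, and the type I interferon-induced genes were lower in R/R lungs. All 9 listed were lower, 7 did not overlap, and 2 fell, beside 9.5% and 1.1% of all tested genes that were lower by those rules. Irf7, a transcription factor of the interferon response, had 417, 458 and 480 counts in R/R and 589, 714 and 648 in WT lungs (log2 -0.52, SE 0.09, edgeR adjusted p = 0.0172). Rsad2, which encodes the antiviral protein viperin, had 109, 106 and 136 counts in R/R and 204, 221 and 172 in WT lungs (log2 -0.77, SE 0.15, edgeR adjusted p = 0.0320). The list's summed level was 180 to 201 CPM in R/R and 236 to 262 CPM in WT lungs, and its median log2 fold change was -0.46. With 1 lung left out, Irf7 was called in 4 of 6 fits and Rsad2 in 2. Any link between interferon and the level of Tnfsf13b was not tested.

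Over 14196 genes whose log2 CPM averaged 1 or more, those whose pattern over the 6 lungs was most like that of a member were found by the root-mean-square difference of log2 CPM after each gene was centred on its mean. For Tnfsf13b they were Gdnf, Sulf1 and Aebp1, at 0.0673, 0.0768 and 0.0894, beside a median of 0.348 over all genes. The nearest to Tnfrsf13c were Spp1 (0.0857), Gapt (0.0865) and Gm1673 (0.118), beside a median of 0.483. Tnfrsf13b was nearest to Hdac6 (0.0466), Ier5 (0.0626) and Agap2 (0.0681), beside a median of 0.252. Tnfsf13 was nearest to Rsad1 (0.0357), Donson (0.0367) and Rab44 (0.0486), beside a median of 0.202. Between members, the smallest difference was 0.269, for the ligand Tnfsf13 and the receptor Tnfrsf13b, and was above the all-gene median of either. It was 0.317 for the receptors Tnfrsf13b and Tnfrsf13c, 0.323 for the ligands, and 0.782 for Tnfsf13b and Tnfrsf13c, which stood farthest apart. The 6 lungs share the genotype contrast, so these values describe likeness only.

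**Figure D5:**
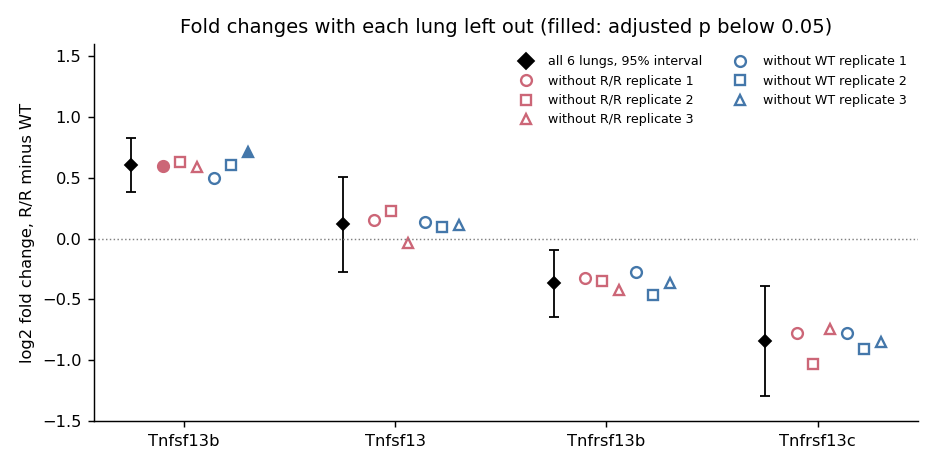
Log2 fold change of R/R against WT (vertical axis) for the 4 tested members with all 6 lungs (black, bars are 95% intervals) and with each lung left out (red for an R/R lung, blue for a WT lung), filled where the edgeR adjusted p is below 0.05. Tnfsf13b stays between 0.50 and 0.71 and is called in 2 of the 6 reduced sets, Tnfrsf13b and Tnfrsf13c stay below 0, and Tnfsf13 crosses 0 without R/R replicate 3.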

How the data were processed

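RNA from the lungs of 6 mice (3 R/R, 3 WT) was sequenced as 150-base read pairs. The authors aligned reads with HISAT2 2.1.0 to mm10 (GRCm38) and deposited a table of raw counts, in which featureCounts 2.0.1 summed pairs over GENCODE M25 exons per the file headers, without strand and without pairs that map to several places or overlap several genes. In the records of this work 1 of the 6 deposited columns is entered as an estimated count because an automatic reading of the comment line failed. Its values are whole raw counts and were not rounded. The submitters' processing notes name DESeq2, and the methods name edgeR.

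Groups and replicate numbers came from the labels. Symbols and longest transcript lengths came from GENCODE M21, and exon positions and overlaps from the deposited table. Symbols were matched for 55141 of 56262 identifiers, and 142 of 143 listed symbols were found (Camlg was not). Calculations used R 4.3.3, edgeR 4.0.16, limma 3.58.1 and DESeq2 1.42.0. Genes were filtered with filterByExpr (minimum count 10, minimum total 15), scaled by TMM and compared by glmQLFit and glmQLFTest over all 17120 genes left, with calls at 0.05 after Benjamini-Hochberg adjustment. The fit was tested on simulated data. Log2 CPM used a prior count of 0.5, and RPKM is CPM per kilobase of exon in the deposited table. Intervals from counts cover counting error only. Libraries of a group differed by more than sampling noise (chi-square per degree of freedom 5.65 to 9.03). Promoter sequences are RefSeq, GRCm38.p6, and all 5 members matched.

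The members and lists were chosen with earlier results of these data known. The genes named are the members, genes overlapping them, any tested gene of the processing, signaling, target and TNF family lists, fixed B and plasma cell genes (Ms4a1, Cd79a, Cd79b, Jchain, Mzb1, Ighm, Igkc), called genes of the other lists, and the 3 genes most alike each tested member. Rbm47, Sftpc and Glycam1, added as checks of the samples, and Cd8a, Trac and Lck were named after their values were seen. Values of 1 gene of the B cell list are not reported here. Alternatives were another tool, scaling, filter, length and B cell summary, a replicate block, and each lung left out.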

Additional observations from a re-analysis of the deposited data

How the results depend on the processing

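Tnfsf13b was called under all 6 settings that kept every lung (log2 fold change 0.60 to 0.61), and with a lung left out its log2 fold change was 0.50 to 0.71 and it was called in 2 of 6 cases. Tnfrsf13c stayed lower in every setting and passed the threshold with DESeq2 (-0.85, adjusted p = 0.0352) and with no filter beyond 1 count (-0.84, edgeR adjusted p = 0.00559), and not with any lung left out (-1.03 to -0.74). Tnfrsf13b stayed lower and uncalled in every setting, at -0.46 to -0.27 with a lung left out. Tnfsf13 ranged from -0.040 to 0.23 with a lung left out and turned negative without R/R replicate 3. Tnfrsf17 ranged from -0.83 to 0.071, turning positive without R/R replicate 1 or WT replicate 1, on counts of 2 to 7 per lung. The causes of these changes were not tested.

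The count of 300 called genes was 541 with DESeq2 and 1109 with no filter, and 180, 76, 117, 65, 110 and 621 without R/R replicates 1 to 3 and WT replicates 1 to 3 in turn, a range of 65 to 621. The no-filter fit covers many more low genes and estimated no spread of the dispersion between genes. The 6 calls among B cell genes, counted again, like those of the other lists, after the data were seen, became 10 with DESeq2, 11 with no filter, and 2 to 8 with a lung left out. The difference in ligand minus receptor level, 0.88, was 0.74 to 1.002 with a lung left out and 1.11 without Tnfsf13, an alternative chosen after seeing the data. Among the called list genes named here, Ms4a1 and Ighm stayed called with any 1 lung left out, and Adam17 was called with none. Among the other list genes named in the report, DESeq2 also called Psen2, Icosl and Sftpc, all higher, and Cd79b, Cd8a and Trac, all lower. It did not call Igkc. Set against the B cell genes, the receptors moved in opposite directions. Tnfrsf13b stayed higher in R/R lungs (0.077 to 0.40) and Tnfrsf13c lower (-0.37 to -0.092) over the settings. With all lungs, both overlapped between the genotypes.

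Same-numbered lungs did not deviate together (correlations of -0.0148 to -0.00355), so the replicate numbers were not used as pairs. With a replicate block the count of called genes was 446 and that of B cell genes 10, Tnfsf13b had a log2 fold change of 0.61 (edgeR adjusted p = 0.00818) and Tnfrsf13c one of -0.85 (edgeR adjusted p = 0.0745), and no member's call changed.

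Depth limits Tnfrsf17 most and Tnfrsf13c next, and 3 lungs per genotype limit every test.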

Other observations

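T cell genes were also lower in R/R lungs. Of 9 listed, 8 were lower, 7 did not overlap between the genotypes, and none was called by the edgeR test, while 4 had an unadjusted p under 0.05. Of all tested genes, 9.5% were lower without overlap and 14.2% had an unadjusted p under 0.05. Their summed level was 47.4 to 57.1 CPM in R/R and 63.0 to 80.7 CPM in WT lungs. DESeq2 called 2 of them, Cd8a and Trac, and edgeR called 2 without WT replicate 2, Cd8a and Lck.

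Genes of lymphoid tissue and thymus were nearly absent in all 6 lungs. Of 8 listed, 1 had enough counts to be tested, Glycam1 was at 0 in every library, and their summed level was 1.06 to 1.495 CPM in R/R and 1.11 to 1.88 CPM in WT lungs. Genes of lung epithelium, endothelium and fibroblasts, 8 in all, were all tested and none was called by the edgeR test (3 with an unadjusted p under 0.05) while DESeq2 called 2, with 5 higher and 3 lower in R/R lungs.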
